A study of Mus musculus with 12 samples.

Results

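The day-night change of liver RNA was compared between HFD-fed mice given Libramed and HFD-fed mice given vehicle. The quantity described is the interaction of treatment and time, which is the change from ZT0 to ZT12 with Libramed minus the change from ZT0 to ZT12 with vehicle, on log2(FPKM + 1). Zeitgeber time (ZT) counts hours from lights on, so that ZT0 is the start of the rest phase of the mouse and ZT12 the start of its active phase. A positive interaction means that a gene moved further towards higher values at ZT12 with Libramed than with vehicle, and a negative one the opposite. A gene entered the test where its FPKM averaged 1 or more across the 12 mice, which held for 9806 of the 23849 symbols in the table. FPKM is a level scaled to transcript length and sequencing depth.

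All 12 mice were male, had a C57BL/6J background, were labelled as 8 weeks old and ate HFD (high-fat diet). The study describes 4 weeks on HFD before the 2 weeks of treatment, during which HFD went on. Whether the age refers to the start or the end of the diet is not stated there. They formed 4 groups of 3 mice, named here vehicle ZT0, vehicle ZT12, Libramed ZT0 and Libramed ZT12. Libramed, called Policaptil Gel Retard in the methods, is a gel-forming fiber blend that was dissolved in drinking water and given by gavage once a day, shortly before lights off, for 2 weeks. Vehicle-treated mice were gavaged with drinking water. The methods thus place the gavage shortly before the ZT12 collection and well before the ZT0 collection in both treatments. Each time was sampled in different animals, so a change over time is a difference between groups of mice.

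Liver RNA follows the day through the circadian clock, a loop in which the CLOCK and BMAL1 proteins switch on the Per and Cry genes, whose products switch them off again. Feeding, insulin and the daily peak of glucocorticoid hormones set the hour of many other liver genes, among them those of fat oxidation, the urea cycle and glucose output. Chaperones of the cytosol follow body temperature and chaperones of the endoplasmic reticulum (ER) follow the load of secreted protein, and both commonly have a daily course in liver.

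Libraries held between 634683 and 759355 FPKM in all. Read totals are not given in the sources used here, and the depth relative to vehicle ZT0 replicate 1, taken from the spacing of the lowest values, ranged from 0.707 to 1.27. Hepatocyte markers other than Alb, which is listed at 0 in every library, summed to between 50591 and 72801 FPKM. The 5 muscle genes looked at (Acta1, Ckm, Tnnt3, Mylpf and Mb) summed to 44.1 FPKM in Libramed ZT12 replicate 3 and to between 0.943 and 1.59 in the other 11 libraries. Where leaving out that library moved a list's count of calls or its median by 1.5 times or more, the value without it is given with the list. Macrophage markers summed to between 36.5 and 97.1 FPKM and neutrophil markers to between 0.584 and 18.0, and no tested member of either list had an interaction p under 0.05. That threshold was passed by 2 of 8 tested hepatocyte markers, Fabp1 at −0.41 and Cps1 at 0.37, by 2 of 4 tested cholangiocyte markers, Krt19 at −1.03 and Sox9 at 0.82, and by 1 of 6 of stellate cells and fibroblasts, Col3a1 at −0.68. Among all tested genes 6.63% passed it. In whole liver, fewer cells of a type and less RNA per cell cannot be told apart.

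No gene passed the test after adjustment over all genes. The smallest Benjamini-Hochberg adjusted p of the interaction in limma was 0.337, and 0 genes were below 0.05. At the unadjusted p under 0.05 that the study used for its comparisons, 650 genes were called (6.63% of those tested). With no interaction in any gene, a share near 0.05 of the tested genes would be called at this threshold. Many of the 650 may thus be chance calls, and which ones cannot be told. The interaction was positive in 375 of them (3.82%) and negative in 275 (2.80%). Called or not, it was positive in 4990 of the 9806 tested genes and negative in 4816. Over all tested genes the median interaction was 0.00, its SD 0.34, and the median standard error of one gene was 0.16. An interaction of at least 1 in absolute size was reached by 133 genes, 56 of which were called. The calls below are at this unadjusted threshold. Single genes were also tested by exact two-sided permutation of the treatments within each time, which has 400 arrangements and cannot give a p below 0.005. The permutation tests that the treatment had no effect at either time, which is a wider statement than no interaction. The last genes inside the unadjusted threshold were Slc16a6 and Ppard, and the first outside were E030018B13Rik and Suv39h1, with interactions of 0.66, 0.93, 0.95 and 0.32.

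The changes over time themselves were wide in both treatments. With vehicle, 1539 genes (15.7%) differed between ZT12 and ZT0 at an adjusted p under 0.05 in limma, and 2975 (30.3%) at p under 0.05. With Libramed the counts were 1462 (14.9%) and 2877 (29.3%). The treatments themselves differed in fewer genes. At ZT0 1090 genes (11.1%) and at ZT12 597 genes (6.09%) had a p under 0.05 for Libramed against vehicle, and 0 passed the adjustment at either time.

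The called genes were sorted by their change over time in each treatment at p under 0.05, which describes the interaction and is no further test. In 243 genes (2.48% of those tested) a change seen with vehicle was not called with Libramed, here termed lost. With vehicle 105 of these were higher at ZT12 and 138 were lower. In 219 genes (2.23%) a change was called with Libramed alone, here termed gained, with 118 higher and 101 lower at ZT12. In 48 genes (0.489%) the change had the same direction in both and was larger with Libramed, and in 54 (0.551%) it was smaller. It had opposite directions in 11 genes (0.112%), here termed reversed, and 9 of these were lower at ZT12 with vehicle and higher with Libramed. In the remaining 75 (0.765%) neither change was called. The sizes of the smaller classes rested on single libraries. The reversed class held 26 genes without vehicle ZT0 replicate 1 and 17 without Libramed ZT0 replicate 1 or Libramed ZT12 replicate 1. The weakened class held 89 genes without vehicle ZT0 replicate 1, 35 without vehicle ZT12 replicate 3 and 27 without Libramed ZT0 replicate 3. The strengthened class held 75 genes without Libramed ZT12 replicate 1.

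**Figure D1:**
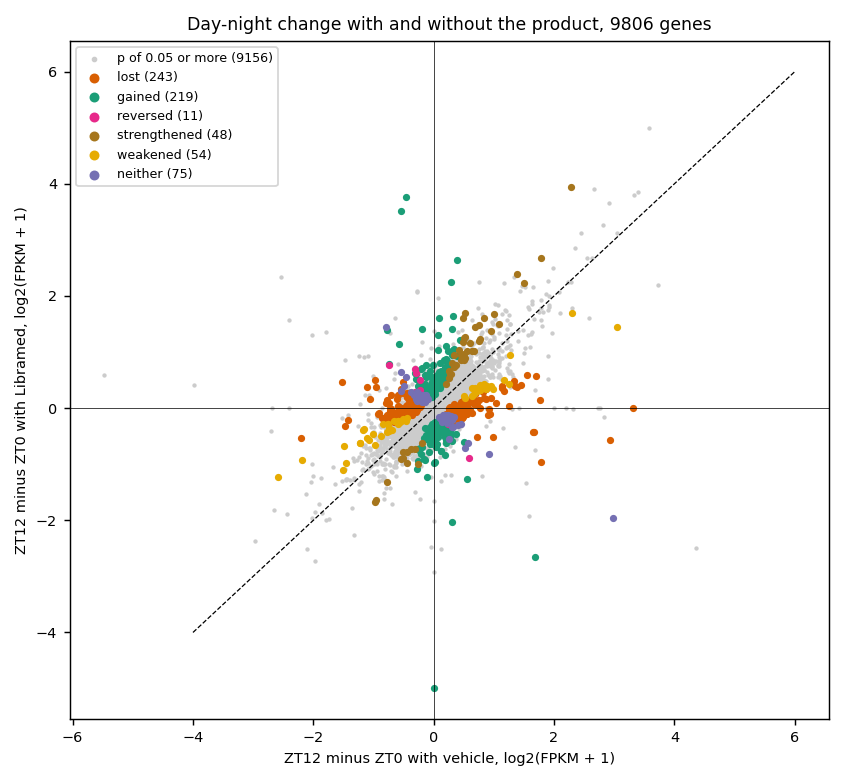
Change from ZT0 to ZT12 with vehicle (horizontal axis) and with Libramed (vertical axis), both as differences of mean log2(FPKM + 1), 1 point per tested gene, 3 mice per group. The dashed line marks equal changes, and coloured points are the 650 genes with an interaction p under 0.05, sorted by the form of the interaction.

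The difference between treatments was larger at ZT0 than at ZT12 in 432 of the 650 called genes (66.5%), against 55.5% of all tested genes. It had opposite signs at the 2 times in 584 of them (89.8%), against 44.8% of all tested genes, and an interaction favours such genes by its construction. The called genes had a median level of 8.01 FPKM, beside 7.79 over all tested genes, and a median absolute interaction of 0.46.

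In 58 genes (0.591%) the 3 Libramed mice lay on one side of the 3 vehicle mice at ZT0 and on the other side at ZT12, without overlap at either time. The Libramed mice were lower at ZT0 and higher at ZT12 in 34 of them and the reverse in 24, and 57 had an interaction p under 0.05. A gene that crosses in this way always has the smallest possible permutation p, 0.005, so that value is no further test of a crossing gene. The limma p rests on the same values, so the count of 57 is no further test either. Sgms2, which encodes a sphingomyelin synthase, had the smallest p of these. It was at 6.04, 6.54 and 6.37 FPKM in the vehicle ZT0 mice and at 5.62, 4.27 and 5.55 in the vehicle ZT12 mice. With Libramed it was at 9.19, 9.47 and 8.98 at ZT0 and at 4.08, 4.05 and 4.13 at ZT12. The Libramed mice were thus all above the vehicle mice at ZT0 and all below them at ZT12, and the 3 mice of each Libramed group lay close together. The interaction was −0.75 ± 0.12 (SE, p = 8.42e-05, adjusted p = 0.337 in limma, exact permutation p = 0.005). Sgms2 lies on chr3:131318985-131491411 (mm10, as are all positions of genes given here). When vehicle ZT12 replicate 2 was left out, the interaction of Sgms2 became −0.85 (adjusted p = 0.0484 in limma).

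Slc25a51, the mitochondrial carrier of NAD+ (chr4:45395923-45408766), crossed in the other direction. It rose over the day in both treatments, from 11.7, 14.7 and 12.8 FPKM to 16.0, 19.5 and 20.7 with vehicle, and from 7.58, 8.63 and 7.56 to 21.1, 26.5 and 31.3 with Libramed. The Libramed mice started below all vehicle mice and ended above them, and the interaction was 1.11 ± 0.20 (p = 0.000153, adjusted p = 0.337 in limma, exact permutation p = 0.005). Nnmt, the methyltransferase of nicotinamide, a precursor of NAD+ (chr9:48591877-48605153), was one of the reversed genes. Its values were 322, 259 and 269.8 FPKM at ZT0 and 210.3, 266 and 209 at ZT12 with vehicle, and 185, 181 and 163 at ZT0 and 244, 323 and 293 at ZT12 with Libramed. The change over time was −0.31 ± 0.13 with vehicle, where 1 mouse at ZT12 lay within the ZT0 range, and 0.69 ± 0.13 with Libramed, where the times did not overlap. The interaction of Nnmt was 1.00 ± 0.19 (p = 0.000206, adjusted p = 0.337 in limma, exact permutation p = 0.01).

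Mif4gd, which encodes a protein that binds the translation machinery (chr11:115607918-115612969), was also reversed. It went from 62.2, 50.9 and 57.7 FPKM to 48.0, 49.3 and 45.8 with vehicle and from 43.5, 48.9 and 48.7 to 53.7, 58.7 and 51.9 with Libramed, an interaction of 0.46 ± 0.13 (p = 0.00368 in limma, exact permutation p = 0.005). The Libramed mice lay below the vehicle mice at ZT0 and above them at ZT12.

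Cyp2c67, an epoxygenase of the cytochrome P450 family (chr19:39608842-39649051), was one of the 2 reversed genes that were higher at ZT12 with vehicle and lower with Libramed, with an interaction of −1.49 ± 0.27 (p = 0.000168, adjusted p = 0.337 in limma, exact permutation p = 0.005). With vehicle it was at 83.7, 51.3 and 55.6 FPKM at ZT0 and 99.1, 79.2 and 106 at ZT12, and with Libramed at 145, 105 and 147 at ZT0 and 72.6, 62.2 and 74.4 at ZT12. The 3 Libramed mice were above all vehicle mice at ZT0 and below them at ZT12. Another 3 genes of this cluster on chromosome 19 were called among the 21 tested members of the Cyp2 family list, which does not hold Cyp2c67. Cyp2c68 had an interaction of −1.09 ± 0.33, Cyp2c29 of −0.82 ± 0.32 and Cyp2c54 of −0.76 ± 0.28 (p = 0.00684, 0.0252 and 0.0177 in limma, exact permutation p = 0.03, 0.1 and 0.05). Beside 2.80% called negative and 3.82% called positive over all tested genes, the list had 3 negative and 0 positive calls. Of its 21 members 16 were negative, against 4816 of 9806 tested genes, with a median of −0.13. The count of negative calls was 5 without vehicle ZT0 replicate 1 or Libramed ZT0 replicate 2, and 2 without Libramed ZT12 replicate 3. The median was −0.32 without vehicle ZT0 replicate 1, −0.24 without Libramed ZT0 replicate 2, −0.08 without vehicle ZT12 replicate 3 and −0.07 without Libramed ZT12 replicate 1. The sequences of these genes are alike, and reads shared between them could have been assigned to either.

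Among the genes that gained a change were Tstd1, a thiosulfate sulfurtransferase-like gene, Orm3, an acid glycoprotein of the acute-phase class, Tigar, a phosphatase that lowers glycolysis, and Rfx4, a transcription factor. Tstd1 went from 37.5, 34.2 and 37.2 to 73.0, 62.0 and 67.8 FPKM with Libramed, against 42.0, 49.8 and 44.3 to 57.3, 52.1 and 47.7 with vehicle, an interaction of 0.67 ± 0.14. Its Libramed mice lay below the vehicle mice at ZT0 and above them at ZT12. Orm3 was at 0.333, 1.38 and 1.20 FPKM at ZT0 and at 12.2, 10.1 and 10.3 at ZT12 with Libramed, and between 0.882 and 5.05 in the 6 vehicle mice, an interaction of 2.24 ± 0.47. Rfx4 reached at most 2.10 FPKM and fell by 0.69 ± 0.11 with Libramed, with an interaction of −0.73 ± 0.15. The p-values of these 3 genes were 0.000401, 0.000568 and 0.000430, and their adjusted p-values 0.383, 0.428 and 0.383 in limma. Tigar had an interaction of 0.50 ± 0.12, and the methyltransferase-like gene Wbscr27 one of −0.59 ± 0.14 (adjusted p = 0.519 for each in limma).

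**Figure D2:**
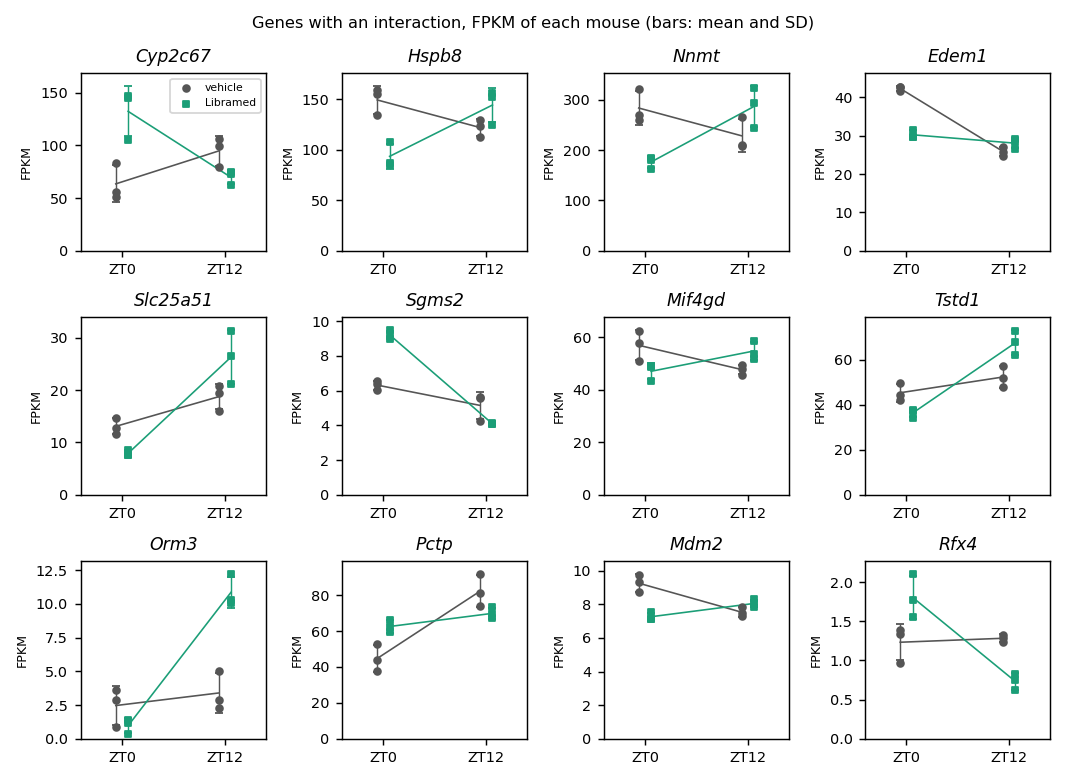
FPKM of 12 genes in each of the 12 mice, with ZT0 and ZT12 on the horizontal axis. Points are mice, vertical bars the mean ± SD of 3 mice, and lines join the means of vehicle (grey) and Libramed (green), which run apart, cross or lie flat in 1 treatment.

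Edem1, which helps to send misfolded glycoproteins from the ER to degradation (chr6:108828641-108859356), had the smallest p of all tested genes and belonged to the lost changes. It was at 42.7, 42.6 and 41.7 FPKM at ZT0 and 24.8, 27.1 and 25.8 at ZT12 with vehicle. With Libramed it was at 29.6, 29.6 and 31.6 at ZT0 and 26.6, 28.5 and 29.1 at ZT12. The 3 vehicle ZT0 mice stood above the other 9 mice, whose values all lay between 24.8 and 31.6. The change over time was −0.69 ± 0.07 with vehicle and −0.10 ± 0.07 with Libramed, and the interaction was 0.59 ± 0.09 (p = 6.36e-05, adjusted p = 0.337 in limma, exact permutation p = 0.01). It lay between 0.56 and 0.62 in the 12 fits that each leave out 1 library.

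Edem1 belonged to a group of ER genes. Of 22 tested genes of ER chaperones and ER-associated degradation, 5 were called positive and 0 negative, against 3.82% and 2.80% of all tested genes. The median interaction was 0.36, beside 0.00 over all tested genes, and 20 of the 22 were positive. All 22 were lower at ZT12 with vehicle and 21 with Libramed, with median changes of −1.07 and −0.71. The median difference of Libramed against vehicle was −0.44 at ZT0 and −0.04 at ZT12. The members were also taken relative to their own means over the 12 mice, and their median read in each mouse. It was 0.55, 0.71 and 0.64 at ZT0 and −0.27, −0.52 and −0.44 at ZT12 with vehicle. With Libramed it was 0.48, 0.05 and 0.23 at ZT0 and −0.59, −0.65 and −0.20 at ZT12, and the pooled SD within groups was 0.178. Syvn1, the ubiquitin ligase at the core of this pathway, had a log2 change of −2.19 ± 0.29 with vehicle, from 135, 191 and 124 FPKM to 37.8, 27.7 and 29.8. Its change with Libramed was −0.92 ± 0.29, from 94.4, 48.5 and 76.1 to 26.8, 32.6 and 56.3, an interaction of 1.27 ± 0.41 (p = 0.0101 in limma, exact permutation p = 0.04). The Libramed mice were below all vehicle mice at ZT0, and the treatments overlapped at ZT12.

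Sel1l, the partner of Syvn1, had an interaction of 0.32 ± 0.14 and Creld2, a secreted ER stress protein, one of 1.35 ± 0.54 (p = 0.0395 and 0.0288 in limma, exact permutation p = 0.210 and 0.0850). Herpud1, a membrane protein of the same complex, went from 457, 582 and 447 FPKM to 357, 286 and 407 with vehicle. With Libramed it went from 361, 249 and 396 to 389, 392 and 627, an interaction of 0.98 ± 0.32 (p = 0.00997 in limma, exact permutation p = 0.0150). The highest of the Libramed ZT12 values was that of replicate 3, the library with the muscle genes. The count of called ER genes was 3 without that library, 3 without vehicle ZT0 replicate 2 or Libramed ZT0 replicate 2, 8 without Libramed ZT12 replicate 1 or 2, and 10 without Libramed ZT0 replicate 1. The median stayed between 0.25 and 0.48 in the 12 fits that each leave out 1 library. The part of the muscle RNA in these values was not tested.

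Outside that list, the weakened changes with the smallest p were those of Wars, Piga and Alg12. Alg12, a mannosyltransferase that builds the sugar chains of glycoproteins, fell by 1.16 ± 0.15 with vehicle and by 0.36 ± 0.15 with Libramed, an interaction of 0.79 ± 0.21 (p = 0.00337 in limma, exact permutation p = 0.03). Piga, which starts the synthesis of the membrane anchor glycosylphosphatidylinositol, went from 3.28, 3.92 and 3.55 FPKM to 1.13, 1.14 and 0.861 with vehicle. With Libramed it went from 1.93, 1.88 and 2.04 to 0.940, 1.15 and 1.73, an interaction of 0.78 ± 0.17 (p = 0.000831, adjusted p = 0.519 in limma, exact permutation p = 0.02). Wars, the tryptophanyl-tRNA synthetase, went from 14.9, 16.2 and 15.3 to 8.88, 7.47 and 8.26 FPKM with vehicle and from 11.7, 10.0 and 11.0 to 8.42, 8.60 and 9.33 with Libramed. In Piga and Wars the Libramed mice were below all vehicle mice at ZT0 and the treatments overlapped at ZT12. The interaction of Wars was 0.56 ± 0.12 (p = 0.000507, adjusted p = 0.414 in limma, exact permutation p = 0.02).

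The promoters of the ER genes were read for the ER stress element, the letters CCAAT and CCACG with 9 bases between them on either strand, since the called genes of the list moved together. This motif and the heat shock element below were chosen after the values of the genes had been seen. The windows run from 250 bases before to 50 bases after each gene's start in RefSeq (GRCm38.p6) and were found for 7428 of the 9806 tested genes. The element was in 14 of these windows (0.188%), in 9 of the 18 windows of the ER list and in 3 of the 279 windows of positive called genes, Creld2, Syvn1 and Alg12. Of the 5 windows of called members of the ER list 2 held it, so it did not set the called members apart within the list. Creld2 and Alg12 are neighbours that point away from each other with 327 bases between them, and both windows hold the same copy, chr15:88819520-88819538. The 2 windows of called list members follow, 5′ to 3′ along each gene, with the element in capitals. They are those of Syvn1 (chr19:6046326-6046625, plus strand) and Creld2 (chr15:88819396-88819695, plus strand), and in Creld2 the element is on the other strand.
Syvn1: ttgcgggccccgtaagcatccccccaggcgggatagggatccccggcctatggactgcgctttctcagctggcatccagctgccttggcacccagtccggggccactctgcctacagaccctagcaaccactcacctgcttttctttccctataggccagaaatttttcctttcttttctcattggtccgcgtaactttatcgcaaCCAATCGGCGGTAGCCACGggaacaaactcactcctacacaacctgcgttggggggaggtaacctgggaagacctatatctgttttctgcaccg
Creld2: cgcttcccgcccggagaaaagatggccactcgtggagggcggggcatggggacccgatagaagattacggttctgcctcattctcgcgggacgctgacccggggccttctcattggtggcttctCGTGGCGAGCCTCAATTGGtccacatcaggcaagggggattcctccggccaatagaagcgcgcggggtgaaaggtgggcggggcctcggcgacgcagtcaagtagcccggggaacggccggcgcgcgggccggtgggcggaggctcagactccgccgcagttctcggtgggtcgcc

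Of 18 tested heat shock and cold-inducible genes 8 were called positive and 1 negative, and 16 of the 18 were positive with a median interaction of 0.56. Over all tested genes 3.82% were called positive and 2.80% negative, and 4990 of 9806 were positive. The median change over time was −0.45 with vehicle, where 14 of the 18 were lower at ZT12, and 0.12 with Libramed, where 7 were lower. The list median per mouse, taken as for the ER genes, was −0.07, 0.65 and 0.42 at ZT0 and −0.18, −0.12 and −0.14 at ZT12 with vehicle. With Libramed it was 0.11, −0.25 and −0.16 at ZT0 and −0.25, −0.01 and 0.22 at ZT12, and the pooled SD within groups was 0.237. Hspb8, a small heat shock protein outside the list (chr5:116408491-116422864), was one of the reversed genes. It went from 159, 155 and 134 FPKM to 113, 124 and 129 with vehicle and from 85.3, 108 and 87.2 to 125, 156 and 152 with Libramed. Each treatment changed without overlap between the times, and the Libramed mice were below all vehicle mice at ZT0. The interaction of Hspb8 was 0.92 ± 0.17 (p = 0.000194, adjusted p = 0.337 in limma, exact permutation p = 0.01).

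Bag3, the cochaperone that works with Hspb8 (chr7:128523616-128546981), went from 35.7, 44.7 and 35.7 FPKM to 15.5, 19.5 and 23.0 with vehicle. The Libramed mice were at 20.1, 16.1 and 20.8 at ZT0 and at 17.0, 27.9 and 41.3 at ZT12. The vehicle ZT0 mice were above all others but Libramed ZT12 replicate 3, and the interaction was 1.47 ± 0.36 (p = 0.00178, adjusted p = 0.519 in limma, exact permutation p = 0.0150). Without any 1 of the 12 libraries it lay between 1.17 and 1.79 and stayed called. Stip1, an adaptor between the Hsp70 and Hsp90 chaperones, had an interaction of 0.60 ± 0.21 and Dnajb1, an Hsp40 chaperone, one of 0.88 ± 0.32 (p = 0.0158 and 0.0189 in limma, exact permutation p = 0.0250 and 0.0650). Both stayed called without any 1 library. The constitutive Hsp70 gene Hspa8 had an interaction of 0.71 ± 0.26, the cochaperone Chordc1 one of 0.69 ± 0.26 and the Hsp110 gene Hsph1 one of 1.22 ± 0.54 (p = 0.0195, 0.0223 and 0.0455 in limma, exact permutation p = 0.03, 0.07 and 0.1).

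The inducible Hsp70 genes varied widely between mice. Hspa1b was at 9.86, 30.6 and 34.2 FPKM at ZT0 and 10.8, 11.0 and 15.4 at ZT12 with vehicle. In the Libramed mice it was at 6.41, 4.06 and 3.84 at ZT0 and at 3.68, 16.9 and 43.6 at ZT12, so that the spread at ZT12 covered all other groups. Hspa1b had an interaction of 2.24 ± 0.94 and its near copy Hspa1a one of 1.53 ± 0.68 (p = 0.0363 and 0.0452 in limma, exact permutation p = 0.115 and 0.0850), and reads shared by the pair could have been assigned to either. Cirbp, the cold-inducible RNA-binding protein, was the member called negative, at −0.49 ± 0.20 (p = 0.0291 in limma, exact permutation p = 0.155). The highest values of Hspa1b, Hsph1, Bag3 and Dnajb1 at ZT12 with Libramed were those of replicate 3, the library with the muscle genes. Without it the list had 4 positive and 0 negative calls and a median of 0.44, and the part of the muscle RNA was not tested. The positive calls numbered 14 without vehicle ZT0 replicate 1, 5 without Libramed ZT0 replicate 3 or Libramed ZT12 replicate 2, 4 without vehicle ZT0 replicate 2 and 3 without Libramed ZT0 replicate 2. They numbered 5 with a robust prior variance.

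The heat shock element, read as GAA, TTC and GAA with 2 bases between each on either strand, was in 0.646% of the 7428 windows and in 4 of the 14 windows of the list. These were those of Hspd1, Hspe1 and the 2 called genes Chordc1 (chr9:18292017-18292316, plus strand) and Hsph1 (chr5:149636287-149636586, minus strand), shown with the element in capitals. Of the 8 windows of called list members 2 held it. Over all called genes it was in 2 of the 279 windows of positive ones (0.717%) and in 0 of the 201 of negative ones. In Chordc1 3 overlapping copies span the start of the gene, and in Hsph1 the element begins 37 bases into the gene.
Chordc1: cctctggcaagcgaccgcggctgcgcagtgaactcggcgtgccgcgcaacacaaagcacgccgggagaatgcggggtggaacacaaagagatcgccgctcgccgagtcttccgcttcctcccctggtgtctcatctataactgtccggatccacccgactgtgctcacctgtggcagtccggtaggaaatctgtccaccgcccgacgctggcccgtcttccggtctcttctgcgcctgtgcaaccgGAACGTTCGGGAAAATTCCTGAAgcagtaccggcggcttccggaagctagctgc
Hsph1: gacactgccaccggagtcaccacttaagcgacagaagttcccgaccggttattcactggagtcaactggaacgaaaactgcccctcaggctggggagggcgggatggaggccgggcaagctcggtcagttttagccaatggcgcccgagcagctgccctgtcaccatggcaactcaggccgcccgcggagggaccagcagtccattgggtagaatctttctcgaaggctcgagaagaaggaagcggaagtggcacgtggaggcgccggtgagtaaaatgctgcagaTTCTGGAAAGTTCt

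Among the 15 tested genes of the glucocorticoid response 6 were called positive and 0 negative, and the median interaction was 1.00, the highest of the 20 lists. Calls over all tested genes were 3.82% positive and 2.80% negative. The median change over time was 0.31 with vehicle and 1.39 with Libramed, and the median difference between treatments was −0.41 at ZT0 and 0.41 at ZT12. Tat, the tyrosine aminotransferase that glucocorticoids induce in liver (chr8:109990437-109999803), crossed between treatments. It was at 499.5, 615 and 834 FPKM at ZT0 and 365, 569 and 829 at ZT12 with vehicle, and at 373, 411 and 441 at ZT0 and 1013, 891 and 1397 at ZT12 with Libramed. The vehicle times overlapped, while every Libramed mouse at ZT12 was above all 6 vehicle mice. The interaction of Tat was 1.60 ± 0.39 (p = 0.00173, adjusted p = 0.519 in limma, exact permutation p = 0.005).

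Tsc22d3, which encodes the glucocorticoid-induced leucine zipper, was at 46.7, 84.3 and 92.6 FPKM at ZT0 and 68.5, 55.9 and 111 at ZT12 with vehicle. In the Libramed mice it was at 45.4, 46.8 and 54.1 at ZT0 and at 102, 94.8 and 183 at ZT12, an interaction of 1.22 ± 0.45 (p = 0.0193 in limma, exact permutation p = 0.0550). The times overlapped with vehicle and not with Libramed. Ddit4, an inhibitor of the growth kinase mTORC1, went from 7.77, 7.74 and 13.2 to 4.93, 3.31 and 7.49 FPKM with vehicle. With Libramed it went from 2.25, 8.13 and 5.26 to 20.5, 9.49 and 13.9, an interaction of 2.17 ± 0.55 (p = 0.00214 in limma, exact permutation p = 0.0150). The times did not overlap in either treatment. Sds, the serine dehydratase, had an interaction of 1.11 ± 0.32 and Cdkn1a, the cell cycle inhibitor p21, one of 1.54 ± 0.51 (p = 0.00495 and 0.0113 in limma, exact permutation p = 0.0150 and 0.0350).

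The count of 6 was the same without Libramed ZT12 replicate 3, with a median of 0.91, and the median was 0.57 without vehicle ZT12 replicate 1. Without vehicle ZT0 replicate 2 there were 2 negative calls, and leaving out vehicle ZT12 replicate 3 gave 1. The palindrome AGAACA and TGTTCT, 3 bases apart, that the glucocorticoid receptor binds was in 0.0269% of the 7428 promoter windows, with Sgk1 as the 1 member of this list, and in 0 windows of called genes. Exact letters this rare make that 0 uninformative.

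The 27 tested genes of amino acid catabolism and the urea cycle were mostly positive. Of these, 7 were called positive and 0 negative, 25 of 27 were positive, and the median interaction was 0.32, against 3.82% called positive and 4990 of 9806 positive over all tested genes. Tat and Sds belong to both lists. The list median per mouse, taken as for the ER genes, was 0.03, −0.11 and −0.06 at ZT0 and −0.18, 0.04 and −0.10 at ZT12 with vehicle. With Libramed it was −0.09, −0.26 and 0.01 at ZT0 and 0.27, 0.13 and 0.23 at ZT12, and the pooled SD within groups was 0.101. The urea cycle enzyme Asl rose from 412, 359 and 388 to 569, 755 and 629 FPKM with vehicle and from 389, 344 and 417 to 951, 846 and 843 with Libramed, an interaction of 0.45 ± 0.16 (p = 0.0181 in limma, exact permutation p = 0.07). Arg1, the arginase of the same cycle, was at 971, 874 and 937 at ZT0 and 1002, 1077 and 967 at ZT12 with vehicle, and at 733, 721 and 913 at ZT0 and 1270, 1206 and 1181 at ZT12 with Libramed. In both genes the Libramed mice at ZT12 were above all vehicle mice. The interaction of Arg1 was 0.50 ± 0.14 (p = 0.00430, adjusted p = 0.519 in limma, exact permutation p = 0.01).

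Cps1, which makes carbamoyl phosphate for the cycle, was at 465, 426 and 498 FPKM at ZT0 and 378, 448 and 386 at ZT12 with vehicle. In the Libramed mice it was at 444, 413 and 532 at ZT0 and 551, 484 and 519 at ZT12, an interaction of 0.37 ± 0.16 (p = 0.0410 in limma, exact permutation p = 0.09). Neither change over time was called. Slc25a15, the ornithine carrier of mitochondria, fell by 0.44 ± 0.08 with vehicle and was at −0.02 ± 0.08 with Libramed, an interaction of 0.43 ± 0.12 (p = 0.00441 in limma, exact permutation p = 0.01). Cbs, an enzyme of homocysteine removal, fell in both treatments, by 1.51 ± 0.12 and 1.10 ± 0.12, an interaction of 0.41 ± 0.17 (p = 0.0385 in limma, exact permutation p = 0.0650). The list had 7 positive calls without Libramed ZT12 replicate 3, but not the same 7, since Cps1 was no longer called there. It had 11 when either vehicle ZT0 replicate 2 or vehicle ZT12 replicate 2 was left out. It had 1 negative call without Libramed ZT0 replicate 2.

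Genes of fat oxidation were mostly negative. Of 32 tested genes of fatty acid oxidation and PPARα targets 7 were called negative and 1 positive, 28 of 32 were negative, and the median interaction was −0.27, against 2.80% called negative and 4816 of 9806 negative over all tested genes. The median change over time was 0.39 with vehicle and 0.15 with Libramed, and 4 of the 32 were lower at ZT12 with vehicle and 11 with Libramed. The list median per mouse, taken as for the ER genes, was −0.19, 0.01 and −0.35 at ZT0 and 0.20, 0.09 and 0.28 at ZT12 with vehicle. With Libramed it was 0.08, −0.16 and −0.13 at ZT0 and 0.04, 0.00 and 0.15 at ZT12, and the pooled SD within groups was 0.128. Bdh1, which interconverts the ketone bodies, was at 88.7, 82.1 and 88.1 FPKM at ZT0 and 107, 94.9 and 109 at ZT12 with vehicle. With Libramed it was at 104, 96.2 and 93.2 at ZT0 and 82.4, 78.1 and 95.8 at ZT12, an interaction of −0.46 ± 0.13 (p = 0.00494 in limma, exact permutation p = 0.01). The vehicle times did not overlap, and the Libramed times overlapped by 1 mouse.

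Acadl, the long-chain acyl-CoA dehydrogenase, rose by 0.48 ± 0.10 with vehicle and was at 0.10 ± 0.10 with Libramed, an interaction of −0.38 ± 0.14 (p = 0.0172 in limma, exact permutation p = 0.0250). Hadha, a subunit of the trifunctional protein, had an interaction of −0.29 ± 0.13, and the thioesterase Acot1 one of −0.97 ± 0.43 (p = 0.0449 and 0.0451 in limma, exact permutation p = 0.05 and 0.09). Vnn1, a pantetheinase that PPARα induces, rose from 16.7, 20.6 and 11.8 to 36.9, 36.3 and 53.6 FPKM with vehicle. The Libramed mice were at 13.9, 19.3 and 11.8 at ZT0 and at 17.0, 24.7 and 22.1 at ZT12, an interaction of −0.84 ± 0.33 (p = 0.0254 in limma, exact permutation p = 0.115). At ZT12 all vehicle mice were above all Libramed mice.

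The largest value in the list was that of Cyp4a14, a fatty acid hydroxylase, at −4.34 ± 1.55 (p = 0.0167 in limma, exact permutation p = 0.04). Its vehicle mice were at 166, 8.65 and 2.77 FPKM at ZT0 and at 36.1, 35.1 and 151 at ZT12, and its Libramed mice at 55.8, 121 and 114 at ZT0 and 18.8, 10.7 and 12.9 at ZT12. The vehicle ZT0 mice spread over more than the whole Libramed range, while all Libramed mice were lower at ZT12. Its relative Cyp4a10 had an interaction of −1.82 ± 0.70 (p = 0.0243 in limma, exact permutation p = 0.0350). The count of negative calls was 14 without vehicle ZT0 replicate 2, 4 without vehicle ZT0 replicate 3 or Libramed ZT0 replicate 1, and 3 without vehicle ZT12 replicate 3, and it stayed at 7 without Libramed ZT12 replicate 3, where 0 were called positive. The median was −0.18 without vehicle ZT0 replicate 3. The PPAR element, AGGTCA repeated after 1 base, was in 3 of the 7428 windows (0.0404%) and in 0 of the 23 windows of this list. Exact letters this rare make a count of 0 uninformative.

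**Figure D3:**
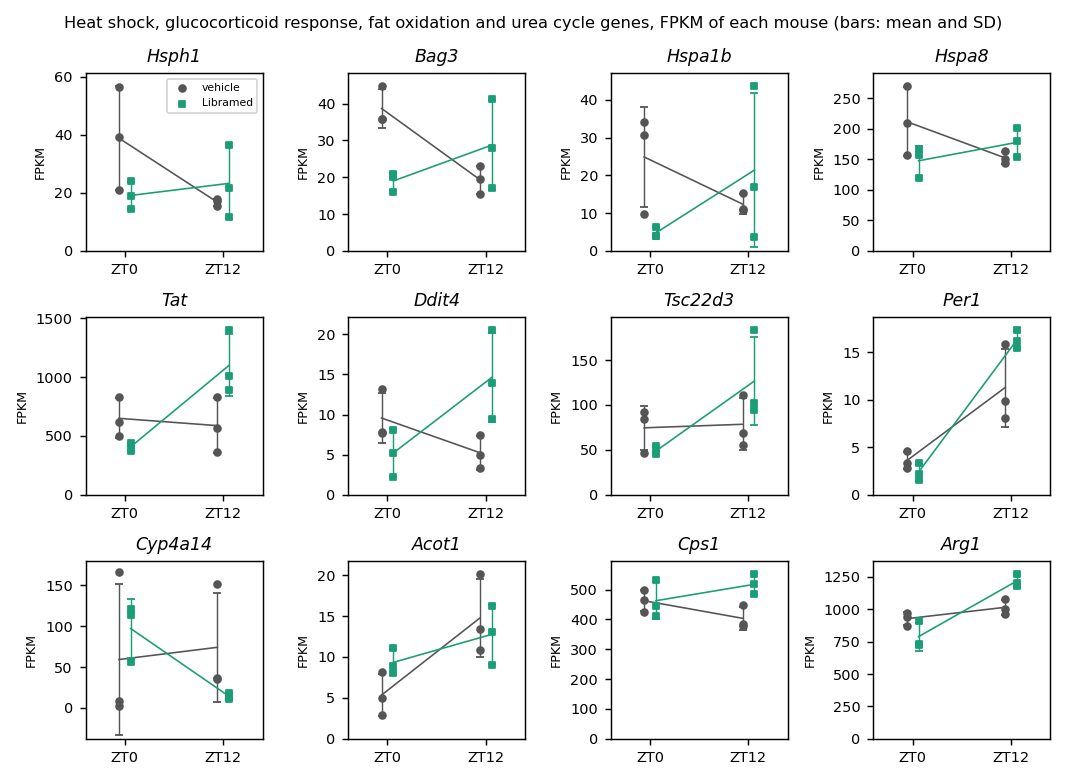
FPKM of 12 genes of the heat shock, glucocorticoid response, fat oxidation and urea cycle lists in each of the 12 mice, with ZT0 and ZT12 on the horizontal axis. Points are mice, vertical bars the mean ± SD of 3 mice, and lines join the means of vehicle (grey) and Libramed (green), with the vehicle mice of Cyp4a14 spread from 2.77 to 166.

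Of the 17 tested clock genes 3 were called positive and 2 negative, against 3.82% and 2.80% of all tested genes. Their median interaction was 0.08. The median was 0.25 without Libramed ZT12 replicate 3, 0.23 without vehicle ZT12 replicate 2, 0.14 without replicate 1 or 2 of vehicle ZT0 and 0.12 without Libramed ZT12 replicate 2. Positive calls numbered 2 without Libramed ZT12 replicate 3 and in 4 other fits that leave out 1 library. Negative calls numbered 3 without vehicle ZT0 replicate 1, 2 without Libramed ZT12 replicate 3 and 1 without any other library. Their changes over time were large in both treatments, with medians of 0.78 with vehicle and 0.84 with Libramed. Per1, a repressor of the loop that glucocorticoids also induce, is in both lists (chr11:69095217-69109960). It rose from 2.86, 4.56 and 3.34 to 9.91, 8.05 and 15.9 FPKM with vehicle and from 1.58, 2.20 and 3.37 to 16.2, 15.4 and 17.3 with Libramed. The treatments overlapped at both times, and the interaction was 1.00 ± 0.33 (p = 0.0118, adjusted p = 0.625 in limma, exact permutation p = 0.04). Bhlhe40, another repressor, rose from 28.9, 29.4 and 20.2 to 42.2, 48.1 and 50.6 with vehicle. With Libramed it rose from 16.2, 24.7 and 22.0 to 73.6, 57.7 and 64.7, an interaction of 0.77 ± 0.24 (p = 0.00854 in limma, exact permutation p = 0.0250), and its Libramed mice at ZT12 were above all vehicle mice.

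Per2 had an interaction of 0.73 ± 0.31 (p = 0.0380 in limma, exact permutation p = 0.0650), which was no longer called in 5 of the 12 fits that each leave out 1 library. Nr1d2, a repressor of Arntl, went from 7.87, 8.08 and 5.29 to 11.5, 9.27 and 9.84 FPKM with vehicle and stayed between 8.89 and 10.2 in the 6 Libramed mice. Its interaction was −0.53 ± 0.19 (p = 0.0150 in limma, exact permutation p = 0.02), and it was called in all 12 fits that leave out 1 library. Dbp, the clock output factor that binds D-boxes, had an interaction of −1.61 ± 0.72 (p = 0.0473 in limma, exact permutation p = 0.115). Its vehicle ZT0 mice were at 17.9, 6.97 and 1.85 FPKM and its Libramed ZT0 mice at 20.3, 18.2 and 27.2, while the groups at ZT12 overlapped. The call of Dbp held in 2 of the 12 fits that leave out 1 library.

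The activators Arntl and Clock had interactions of 0.29 ± 0.33 and 0.02 ± 0.15, with 95% intervals from −0.43 to 1.02 and from −0.31 to 0.35. Per3, Hlf, Rora and Nfil3 lay between −0.03 and 0.08, and the widest of their 95% intervals ran from −0.67 to 0.83. Nr1d1 fell in both treatments and its interaction of −0.76 ± 0.47 was not called (p = 0.134 in limma, exact permutation p = 0.170). Among 14 tested output genes of the clock 1 was called, against 6.63% of all tested genes. The called gene was Ccrn4l, which has a strong nightly peak, at 1.67 ± 0.65 (p = 0.0252 in limma, exact permutation p = 0.0450). It stayed called in 7 of the 12 fits that leave out 1 library, and not without Libramed ZT12 replicate 3. The median of these output genes was 0.06, and it ran from −0.11 without Libramed ZT12 replicate 3 to 0.22 without Libramed ZT0 replicate 3. No output gene was called without replicate 2 of vehicle ZT0 or of vehicle ZT12. Positive calls numbered 3 without Libramed ZT12 replicate 1 and 2 without vehicle ZT0 replicate 3 or Libramed ZT0 replicate 1. Negative calls numbered 2 without replicate 1 of vehicle ZT0 or of vehicle ZT12 and 1 without Libramed ZT12 replicate 3.

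**Figure D4:**
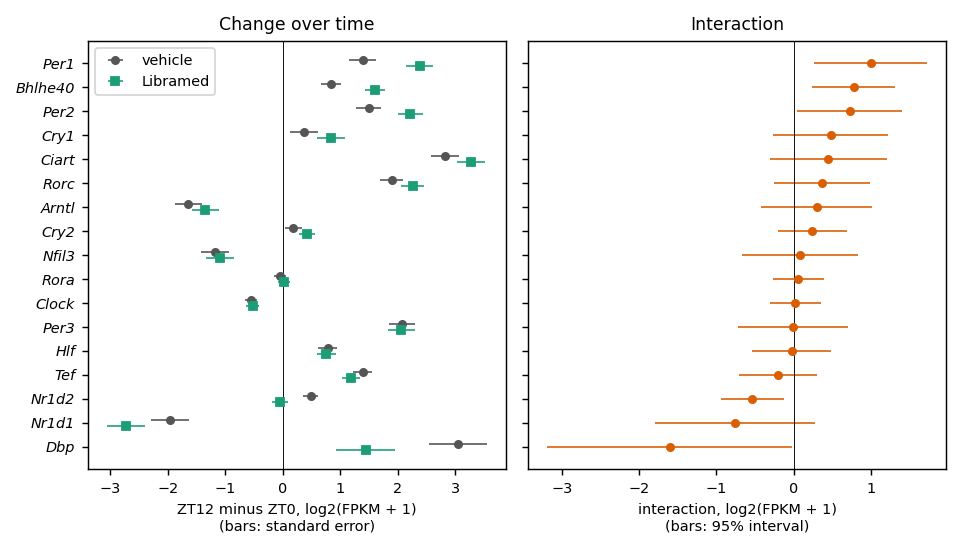
Change from ZT0 to ZT12 with vehicle and with Libramed (left, bars are standard errors) and the interaction (right, bars are 95% intervals) of the 17 tested clock genes, on log2(FPKM + 1), from 3 mice per group. The interval lies above 0 for Per1, Bhlhe40 and Per2, below 0 for Nr1d2 and Dbp, and covers 0 for the other 12.

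The E-box CACGTG, to which CLOCK and BMAL1 bind, was in 12.5% of the 7428 promoter windows, in 12.5% of those of the positive and 12.9% of those of the negative called genes. Of the 14 windows of clock genes 4 held it, those of Ciart, Cry1, Per1 and Tef. The D-box letters TTATGCAA were in 0.821% of all windows and TTATGTAA in 0.714%. Among the called genes of the list the window of Per1 (chr11:69098699-69098998, plus strand) held an E-box 166 bases before the start in RefSeq and a D-box 24 bases before it, both in capitals. That start lies inside the longer span given for Per1 above, not at its first base.
Per1: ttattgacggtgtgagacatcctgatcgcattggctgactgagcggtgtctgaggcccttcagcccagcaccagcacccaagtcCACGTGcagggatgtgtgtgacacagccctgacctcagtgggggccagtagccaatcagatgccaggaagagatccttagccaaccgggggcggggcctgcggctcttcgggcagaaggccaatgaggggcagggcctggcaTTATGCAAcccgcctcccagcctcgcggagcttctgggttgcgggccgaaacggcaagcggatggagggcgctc

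Glucose handling had calls in both directions. Of 17 tested genes of gluconeogenesis and glycogen 3 were called positive and 1 negative, against 3.82% and 2.80% of all tested genes. The list had a median of 0.21. Slc37a4, which carries glucose-6-phosphate into the ER, rose from 102, 98.9 and 88.6 to 162, 167 and 166 FPKM with vehicle and from 94.5, 82.6 and 76.9 to 192, 184 and 226 with Libramed. The Libramed mice at ZT12 were above all vehicle mice, and the interaction was 0.47 ± 0.14 (p = 0.00753 in limma, exact permutation p = 0.01). Slc2a2, the main glucose transporter of hepatocytes, rose from 73.5, 62.4 and 63.0 to 116, 119 and 121 with vehicle and from 79.3, 86.3 and 83.2 to 107, 109 and 119.9 with Libramed, an interaction of −0.40 ± 0.12 (p = 0.00520 in limma, exact permutation p = 0.0150). Its Libramed mice were above all vehicle mice at ZT0.

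Ppp1r3b and Ppp1r3c, which bring protein phosphatase 1 to glycogen, differed in form. Ppp1r3b rose by 1.04 ± 0.17 with Libramed and was at 0.32 ± 0.17 with vehicle, an interaction of 0.72 ± 0.25. Ppp1r3c fell by 1.47 ± 0.30 with vehicle and was at −0.31 ± 0.30 with Libramed, an interaction of 1.15 ± 0.43 (p = 0.0136 and 0.0201 in limma, exact permutation p = 0.0150 and 0.04). The list had 5 positive calls without replicate 1 or 2 of vehicle ZT0 or without Libramed ZT0 replicate 3, and a median of 0.10 without vehicle ZT0 replicate 3. It had 2 positive calls without that library and 2 negative calls without Libramed ZT12 replicate 3. Among 19 tested genes of insulin and IGF signalling 0 were called in either direction, against 6.63% of all tested genes. Their median was −0.04, and the largest interaction was that of Socs2 at −2.03 ± 0.93 (p = 0.0504 in limma, exact permutation p = 0.1). The median was −0.08 without Libramed ZT12 replicate 3 or vehicle ZT0 replicate 3 and 0.01 without Libramed ZT0 replicate 3 or Libramed ZT12 replicate 2. Negative calls there numbered 2 without Libramed ZT0 replicate 2 and 1 without Libramed ZT12 replicate 1 or 3, vehicle ZT12 replicate 3 or vehicle ZT0 replicate 2. Leaving out vehicle ZT12 replicate 2 gave 1 positive call.

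Among 25 tested acute-phase genes 4 were called positive and 0 negative, with a median of 0.28, against 3.82% and 2.80% called over all tested genes. Besides Orm3 these were the serum amyloids Saa1 and Saa2 and the transcription factor Stat3. Saa1 was at 6050, 9291 and 3252 FPKM at ZT0 and 1116, 5588 and 9336 at ZT12 with vehicle, and at 183, 593 and 139.8 at ZT0 and 2460, 9887 and 942 at ZT12 with Libramed. The Libramed ZT0 mice were below all others, and the other 3 groups overlapped. Saa1 had an interaction of 4.06 ± 1.31, Saa2 of 4.22 ± 1.91 and Stat3 of 0.43 ± 0.19 (p = 0.01, 0.0488 and 0.0431 in limma, exact permutation p = 0.1, 0.190 and 0.125). Saa1 and Saa2 are near copies whose shared reads could have been assigned to either. Positive calls numbered 2 without vehicle ZT0 replicate 1 or Libramed ZT12 replicate 2, with median-ratio scaling or with a minimum mean of 5 FPKM, and 7 without vehicle ZT12 replicate 3. There was 1 negative call without Libramed ZT0 replicate 1. The median was 0.12 without vehicle ZT12 replicate 1, 0.44 without Libramed ZT12 replicate 3 and 0.48 without vehicle ZT12 replicate 3.

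No gene of lipid synthesis was called, against 6.63% of all tested genes. Among 18 tested genes of fatty acid synthesis the median interaction was 0.33 and among 24 of cholesterol synthesis and SREBP-2 targets −0.26. Both medians rested on single libraries. The first ranged from 0.06 without vehicle ZT12 replicate 1 to 0.78 without vehicle ZT0 replicate 2, was 0.65 without Libramed ZT12 replicate 3, and moved by over 1.5 times in 9 of the 12 fits. Without vehicle ZT0 replicate 2 or Libramed ZT12 replicate 3, 2 of its genes were called positive, and 1 was when vehicle ZT0 replicate 3 or replicate 2 of vehicle ZT12 was left out. The second ranged from −0.47 without vehicle ZT0 replicate 1 to 0.09 without Libramed ZT12 replicate 3, and moved by over 1.5 times in 8 of them. Negative calls there numbered 4 without vehicle ZT0 replicate 1, 2 without vehicle ZT12 replicate 1 and 3 without Libramed ZT12 replicate 2, and 1 gene was called positive without vehicle ZT0 replicate 2. In each list the members with the largest interactions were Thrsp, a regulator of lipogenesis, at 1.23 ± 0.65, and Hmgcs1, the HMG-CoA synthase, at −0.93 ± 0.58. Of 16 tested genes of lipid storage 1 was called in each direction, against 3.82% positive and 2.80% negative over all tested genes. Their median was 0.01, lay between −0.03 and 0.05 in the 12 fits and was −0.01 without Libramed ZT12 replicate 3. Pparg, a nuclear receptor of lipid storage, had an interaction of −0.95 ± 0.34, and Hilpda, a lipid droplet protein, one of 0.45 ± 0.20 (p = 0.0177 and 0.0466 in limma, exact permutation p = 0.0250 and 0.08). Pparg rose from 5.31, 2.10 and 4.07 to 10.5, 7.80 and 7.52 FPKM with vehicle, and lay between 4.13 and 7.24 in the 6 Libramed mice. The 6 adipocyte markers looked at summed to 19.1, 11.1 and 20.4 FPKM at ZT0 and to 21.2, 52.7 and 33.1 at ZT12 with vehicle, and to between 10.4 and 22.0 in the Libramed mice. Lep and Retn were listed at 0 in every library, and of the 2 markers tested, Cfd and Fabp4, 0 were called. The part of adipocyte RNA in the values of Pparg was not tested. The negative call of the list held in all 12 fits, and the positive call of Hilpda in 4 of them.

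The remaining lists held few calls in number, and the shares called over all tested genes were 3.82% positive and 2.80% negative. Of 14 tested immediate early genes, which respond within minutes to stimuli, 3 were called negative and 0 positive, with a median of −0.40. Jun was at −0.78 ± 0.29, Egr1 at −2.33 ± 0.93 and Ier2 at −0.64 ± 0.25 (p = 0.0210, 0.0288 and 0.0281 in limma, exact permutation p = 0.05, 0.09 and 0.145). In all 3 genes the Libramed ZT0 mice were above all vehicle ZT0 mice. Without Libramed ZT12 replicate 3 this list had 1 negative call and a median of −0.09. It had 0 negative calls without vehicle ZT12 replicate 1 and 5 without Libramed ZT0 replicate 2. There was 1 positive call without vehicle ZT12 replicate 1, without vehicle ZT0 replicate 2 and with the replicate block. The median was −0.62 without vehicle ZT0 replicate 1, −0.26 without vehicle ZT0 replicate 2, −0.21 without vehicle ZT0 replicate 3 and −0.20 without Libramed ZT0 replicate 1. Of 12 tested ATF4 targets 2 were called positive, the stress factor Ddit3 at 1.20 ± 0.38 and Cebpb, a factor of liver metabolism and the acute phase, at 0.73 ± 0.27 (p = 0.00853 and 0.0194 in limma, exact permutation p = 0.0150 and 0.0250), with a list median of 0.01 that ran from −0.10 to 0.11 in the 12 fits and was 0.04 without Libramed ZT12 replicate 3. Of 23 tested ribosome biogenesis genes 1 was called, Nolc1, a nucleolar chaperone, at 0.63 ± 0.17 (p = 0.00297 in limma, exact permutation p = 0.02), with a median of 0.08 that ran from −0.02 to 0.12 and was 0.04 without the same library. No gene was called among 15 of bile acid synthesis and transport, 20 interferon-stimulated genes and 8 tubulins, whose medians were −0.12, −0.10 and 0.13. These medians and the absence of calls rested on single libraries. The bile acid median ran from −0.16 without vehicle ZT0 replicate 2 to −0.02 without vehicle ZT0 replicate 1. The interferon median ran from −0.27 without vehicle ZT0 replicate 1 to −0.03 without vehicle ZT0 replicate 2, and was −0.06 without Libramed ZT12 replicate 3. The tubulin median ran from 0.07 without Libramed ZT0 replicate 2 to 0.23 without Libramed ZT0 replicate 1. Negative calls among the bile acid genes numbered 2 without replicate 1 of vehicle ZT0 or of vehicle ZT12, and 1 without vehicle ZT0 replicate 2 or Libramed ZT12 replicate 3 and with quantile normalization or a robust prior variance. The interferon genes had 2 negative calls without vehicle ZT0 replicate 1 and 1 without Libramed ZT12 replicate 3. Among the tubulins 1 gene was called negative without vehicle ZT0 replicate 1, and 1 positive without vehicle ZT0 replicate 2, vehicle ZT0 replicate 3 or Libramed ZT0 replicate 1. In these lists the members with the largest interactions were Cyp7b1, an oxysterol hydroxylase, at 0.41 ± 0.99, Usp18, a protease of the interferon response, at −0.47 ± 0.37, and Tubb2a, a beta-tubulin, at 0.56 ± 0.51.

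**Figure D5:**
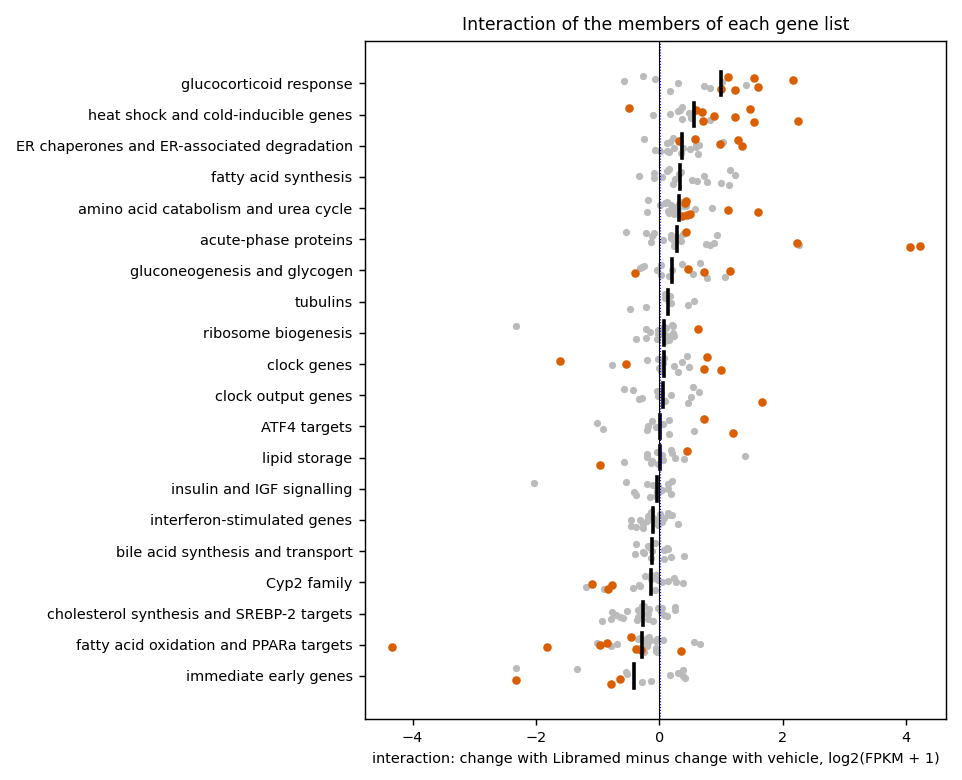
Interaction of each tested member of the 20 gene lists on log2(FPKM + 1), with the lists ordered by their median (black bar). Orange points are members with an interaction p under 0.05 in limma and grey points the others, and the glucocorticoid response has the highest median at 1.00 and the immediate early genes the lowest at −0.40.

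Further lost changes with a small p were those of Pctp, Mdm2, Nelfa and Crybb3. Pctp, the phosphatidylcholine transfer protein (chr11:89982665-90002894), went from 52.6, 37.6 and 44.0 to 73.7, 81.4 and 91.6 FPKM with vehicle and from 59.2, 66.0 and 62.4 to 69.4, 73.2 and 67.0 with Libramed. The Libramed mice lay above the vehicle mice at ZT0 and below them at ZT12, and the interaction was −0.71 ± 0.17 (p = 0.00126, adjusted p = 0.519 in limma, exact permutation p = 0.005). Mdm2, the ubiquitin ligase of p53 (chr10:117688875-117710758), went from 8.71, 9.76 and 9.31 to 7.28, 7.47 and 7.85 with vehicle and from 7.14, 7.52 and 7.13 to 8.02, 8.29 and 7.85 with Libramed. Its interaction was small, 0.40 ± 0.09, and the spread within groups was smaller still (p = 0.00141, adjusted p = 0.519 in limma, exact permutation p = 0.005). Nelfa, a subunit of the factor that pauses RNA polymerase, had an interaction of 0.43 ± 0.10 (p = 0.00152 in limma, exact permutation p = 0.02). Crybb3, a crystallin gene, was at 5.82, 5.02 and 5.41 FPKM in the vehicle ZT0 mice and between 0.546 and 2.74 in the other 9, an interaction of 1.99 ± 0.45 (p = 0.00103 in limma, exact permutation p = 0.03). H2-Bl, an MHC class I gene with many near copies, rose more with Libramed, with an interaction of 1.17 ± 0.24 (p = 0.000415 in limma, exact permutation p = 0.01), and reached at most 3.45 FPKM.

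Of the 100 genes looked at singly, 76 had an interaction p under 0.05 in limma, and 50 of these kept it in all 12 fits that each leave out 1 library. Most of the 100 were named because they were called, so this share follows from the choice, beside 6.63% over all tested genes. The 12 fits reuse the same mice and are no separate test. Without Libramed ZT12 replicate 3, the library with the muscle genes, 14 of the 76 were no longer called. These were Per2, Ccrn4l, Hilpda, Cyp2c29, Cps1, Creld2, Sel1l, Hspa1a, Hspa1b, Hsph1, Chordc1, Cirbp, Egr1 and Ier2.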

How the data were processed

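FPKM per gene, on mm10, was deposited by the authors as 1 table with a column for each mouse. The methods name ELAND with uniquely aligned reads and stranded mRNA libraries, while the submitters' processing notes name TopHat and Cuffnorm and the labels the TruSeq RNA v2 kit. These sources do not settle which was used. The table has 24138 lines. Where a symbol recurred, 289 lines with lower means were dropped, and 6783 of the 23849 symbols are at 0 throughout. Genes averaging 1 FPKM or more were fitted as log2(FPKM + 1), with 4 group means over 12 mice and a mean-variance trend, by limma 3.58.1 (R 4.3.3), two-sided and with Benjamini-Hochberg adjustment over 9806 genes. The fit was tested on simulated data. The p-values rest on the spread between 3 mice per group.

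The members, lists and motifs were chosen with earlier results of these data known. Named are the 6 smallest p of the lost, gained and reversed genes, 3 of the strengthened and weakened, 6 crossing genes, and called list members or else the 2 largest, without small RNAs and predicted genes. Results for 2 genes that this rule names are not reported here. Alg12 and Creld2 were noted as neighbours after their values were seen. Of the tested symbols 185 name several genes and are in no list count. Coordinates are from GENCODE vM21 for 9293 tested genes. Alternatives were another pseudocount, no minimum or a minimum of 5 FPKM, median-ratio scaling, quantile normalization, no trend, a robust prior variance, a replicate block, a minimum interaction of 0.5 and each library left out.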

Additional observations from a re-analysis of the deposited data

Results flagged for a closer look

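In 30 tested genes (0.306%) every mouse at ZT12 lay on one side of the ZT0 mice with vehicle and on the other side with Libramed, and all 30 had an interaction p under 0.05 in limma. Such genes are picked by the values that form the interaction, so these p-values are no further test. Of the 100 genes looked at singly, 6 moved in this way. Their interactions on log2(FPKM + 1) were 0.40 for Mdm2, 0.92 for Hspb8, 0.52 for Lsm1, which encodes a subunit of the ring that leads mRNA to decapping, 0.55 for Fam207a, 0.46 for Mif4gd and 2.17 for Ddit4. In each of the 6 the vehicle mice were lower at ZT12 and the Libramed mice higher. The p-values of Lsm1 and Fam207a were 0.00306 and 0.00340, and the adjusted p was 0.519 in limma for both. Lsm1 went from 6.47, 6.40 and 5.78 to 5.76, 4.87 and 4.53 FPKM with vehicle and from 4.85, 4.18 and 4.62 to 5.54, 5.14 and 6.29 with Libramed. None of the 6 passed the adjustment over all genes.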

How the results depend on the processing

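Without a minimum FPKM the called genes numbered 1050, 515 of them negative, with 409 gained, 34 reversed, 131 with neither change called and 90 crossing. With a minimum mean of 5 FPKM they numbered 422, 161 of them negative, with 156 lost, 130 gained, 49 with neither and 33 crossing. Fewer or more genes are tested in these settings. With a minimum absolute interaction of 0.5 they numbered 270, 142 positive and 128 negative. With a pseudocount of 0.1 the interaction of Clock was −0.00. The pseudocount, scaling, quantile, no trend and robust settings left the count of called genes between 626 and 693.

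Leaving out each library in turn gave 543 to 896 called genes, 316 to 520 positive and 225 to 376 negative, with 194 to 349 lost, 200 to 293 gained, 9 to 26 reversed, 33 to 75 strengthened, 27 to 89 weakened and 65 to 89 with neither. Crossing genes numbered 83 to 148, since fewer mice overlap less by construction. From 0 to 1 gene passed the adjustment, Sgms2 and the small RNAs Snora17 and Mir6353 each in 1 fit. The interactions of genes that were not called changed sign in some of these fits, with ranges of −0.05 to 0.10 for Clock, −0.28 to 0.26 for Per3, −0.02 to 0.14 for Rora, −0.38 to 0.03 for Tef, −0.16 to 0.10 for Hlf, −0.14 to 0.32 for Nfil3, −0.28 to 1.17 for Cyp7b1 and −0.99 to 0.03 for Socs3. The cause was not tested.

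With the replicate number as a block 699 genes were called. Same-numbered libraries of different groups had correlations of their deviations from the group means between −0.279 and 0.341, so the numbers do not pair the mice. Depth is known only as a ratio between libraries, and no counting error can be given.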
